A study of Homo sapiens with 10 samples.

Results

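The genes described here are 47 genes whose messenger RNA was lower in NKX2-1GFP+ cells of human thyroid organoids at days 38 and 45 of differentiation than at days 16, 23 and 31. They were selected on their measured levels, in CPM (a gene's count divided by the summed counts of its library, times 1000000). A gene entered when its lowest CPM among the 6 libraries of days 16, 23 and 31 was at least 5 and at least 2.5 times the highest CPM among the 4 libraries of days 38 and 45, and symbols starting with HOX or HOTAIR were left out. The rule kept 47 of the 28265 measured gene symbols, or 0.428% of the 10991 genes that reached 5 CPM in all 6 early libraries. The same rule in the opposite direction, for genes higher from day 38, kept 140. Since the rule compared days 16 to 31 (the early phase) with days 38 and 45 (the late phase), every difference between these phases is given as a description, and tests were made only between days of the same phase.

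The cells came from ESIBIe003-A-6, a registered line selected as a clone from human HES3 embryonic stem cells in which green fluorescent protein (GFP) marks one *NKX2-1* allele and doxycycline switches on lentiviral *NKX2-1* and *PAX8* transgenes. All libraries carry this genotype, and all cells had been through the activin A and doxycycline steps and were sorted for GFP, with wells pooled for each sample. The 5 days had 2 libraries each. Day 16 cells are labelled c-AMP, although by the study's schedule they had been in basal medium until then. Day 23 and day 31 cells had received 8-br-cAMP, a cell-permeable cAMP analogue. By the schedule the medium was changed shortly before day 31, whose label still names c-AMP. Day 38 cells had received hrTSH (recombinant human thyrotropin) and dexamethasone, a synthetic glucocorticoid, in place of cAMP, and day 45 cells also SB431542, an inhibitor of TGFβ receptor kinases. The label of day 45 names TSH and SB without dexamethasone. Day and medium changed together between day 31 and day 38, so their parts cannot be told apart here, and organoids left in cAMP up to those later days are not analysed here.

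Thyroid follicular cells arise from anterior foregut endoderm. Progenitors that express NKX2-1 and PAX8 first expand and later turn on the genes for hormone production, under control of thyrotropin through its receptor and cAMP. Bone morphogenetic proteins (BMPs) are secreted ligands that act in foregut patterning. The receptor kinases they bind phosphorylate SMAD proteins, which turn on the ID and MSX genes, and secreted antagonists bind the ligands. Somatostatin, a peptide that inhibits hormone release, is made by endocrine and nerve cells and by parafollicular cells of the thyroid.

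Promoter windows, from 250 bases before to 50 bases after the start of a gene, were matched for 39 of the 47 genes (RefSeq, GRCh38.p14). The windows below hold the HOX and PBX type letters, which were searched for, upstream of the start. That of *SST* also holds the cAMP response element. *LOC646588* held the HOX and PBX type letters after its start, and its window is not shown. Capitals mark the motif letters, and sequences run 5′ to 3′ on the strand of the gene. *SST* (chr3:187670395-187670514, minus strand) held the HOX and PBX type letters 112 bases and the cAMP response element 47 bases upstream of its start. *RAB3B* (chr1:51990811-51990870, minus strand) held the HOX and PBX type letters, read on the opposite strand, 162 bases and an AP-1 motif 119 bases upstream. *NTM* (chr11:131370395-131370424, plus strand) held the HOX and PBX type letters, read on the opposite strand, 210 bases upstream. This distance is from the RefSeq start of *NTM*, which differs from the GENCODE start given for it below. Other windows, among them those of *LCP1*, *DPP6*, *DAB2* and *SMOC1*, lie well inside the GENCODE gene, at a different start. All shares of promoters below use the RefSeq starts.
SST: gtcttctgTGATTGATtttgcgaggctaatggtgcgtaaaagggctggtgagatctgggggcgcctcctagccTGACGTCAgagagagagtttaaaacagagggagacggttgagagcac
RAB3B: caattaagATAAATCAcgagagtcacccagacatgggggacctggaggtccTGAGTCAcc
NTM: gcaaagtggcATTTATCAttctatctctcc

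The motifs were read on both strands. The full cAMP response element, TGACGTCA, was in 1 of the 39 promoters (*SST*, 2.56%), against 3.45% of 8743 promoters of genes at 5 CPM or more in all early libraries and 1.98% of all 27305 promoters. TGATNNAT, the HOX and PBX type letters, was in 4 (*SST*, *RAB3B*, *NTM* and *LOC646588*, 10.3%), against 3.12% and 7.60%. TGANTCA, the AP-1 motif, was in 1 (*RAB3B*, 2.56%), against 4.06% and 7.76%. AGAACA, a half-site of the glucocorticoid response element, was in 3 (*ID1*, *ETV1* and *LCP1*, 7.69%), against 8.62% and 14.9%. CCAAT was in 16 (41.0%), against 37.0% and 35.7%, and TATAAA in 5 (12.8%), against 5.60% and 12%. The ratio of observed to expected CpG dinucleotides was at least 0.6 in 27 of the 39 (69.2%), against 84.8% and 49.0%, with a median of 0.72 against 0.85 and 0.58.

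Counted reads ran from 7247268 to 10333933 per library. A floor of 3 counts, chosen to allow for counting error, corresponds to 0.290 to 0.414 CPM, and lower counts also occurred. Together the 47 genes took 0.613 and 0.580% of the counts at day 16, 0.826 and 0.780% by day 23, 0.695 and 0.722% by day 31, 0.110 and 0.112% by day 38, and 0.0784 and 0.0721% in the day 45 libraries. In bulk RNA, fewer cells that express a gene and less RNA per cell cannot be told apart. The mean CPM of days 16 to 31 was 3.87 to 30.3 times that of days 38 and 45 in 46 of the genes, with a median of 8.39 over the 47. No fold is given for *SLC6A2*, which had 3 of its 4 late libraries at or under 3 counts. The median gene had a mean of 72.9 CPM in the early phase and 9.72 in the late phase. Most of the genes were still counted in the late phase. None had all 4 late libraries at or under 3 counts, 5 had at least 1 such library, and 11 still averaged 20 CPM or more. The step from day 31 to day 38 alone was 2.76 to 70.2 times, with a median of 5.69. From day 38 to day 45 the mean was lower in 38 genes and higher in 9. The early maximum of the daily mean was at day 16 in 22 genes, at day 23 in 17 and at day 31 in 8, so the genes did not share one early course. Like counts over all genes are not given here for either split, so neither is read as particular to the 47.

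**Figure D1:**
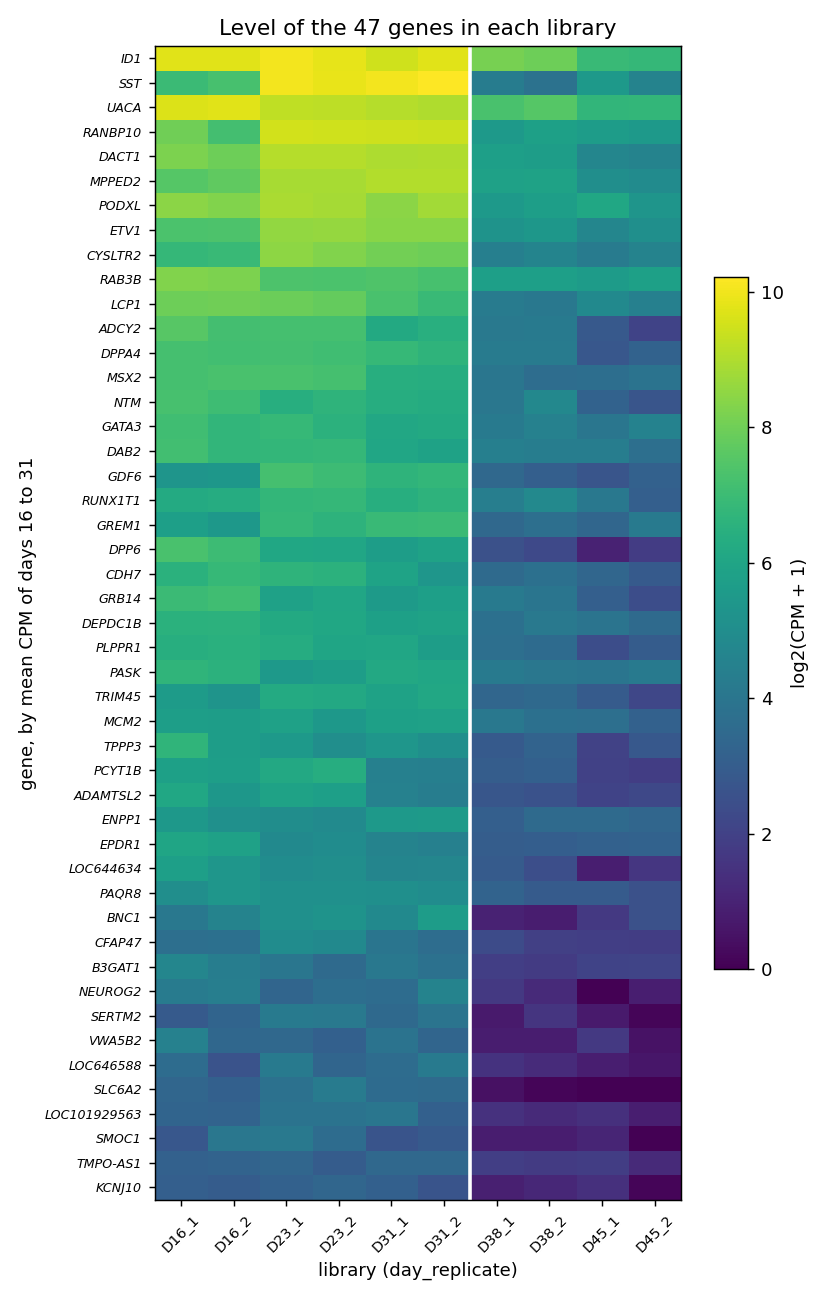
Level of each of the 47 genes (rows, by mean CPM of days 16 to 31) in each of the 10 libraries (columns, day and replicate), as log2(CPM + 1). The white line separates days 16 to 31 from days 38 and 45, and each row is lower to its right, by the rule.

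Library size scaling bears on how many genes the rule keeps. Over the 21014 genes tested, the median difference between late and early mean log2 CPM was −0.12 on library totals and 0.02 with edgeR's TMM factors, and that of the 47 genes was −3.04 and −2.88. With TMM effective library sizes the rule kept 31 genes, all of them among the 47, and without the second day 38 library it kept 72. The membership of the genes lost with TMM rests on scaling by library totals, and these genes are not named here. Genes described below with ratios close to 2.5 include *GREM1* (2.51), *ID1* (2.56), *RANBP10* (2.59), *MCM2* (2.63) and *SST* (2.77).

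Of the 47 genes, 5 belong to the BMP pathway. *ID1* (chr20:31605283-31606515), which encodes an inhibitor of basic helix-loop-helix factors and is a direct BMP target, had the highest early mean of all. It was at 875 and 875 CPM at day 16, 1049 and 929 by day 23, 723 and 870 by day 31, 283 and 249 by day 38, and 120 and 113 in the day 45 libraries. The late libraries were all below the early ones, and day 45 was below day 38. *MSX2* (chr5:174724582-174730896), a homeobox gene and BMP target, was at 148 and 157 CPM at day 16, 155 and 148 by day 23, 85.2 and 81.5 by day 31, 15.3 and 11.5 by day 38, and 11.9 and 14.0 in the day 45 libraries. Its libraries overlapped between days 16 and 23 and were lower at day 31, and lower again at both late days. *GDF6* (chr8:96142333-96160806), a BMP family ligand, was at 39.9 and 42.0 CPM at day 16, 147 and 129 by day 23, 101 and 107 by day 31, 9.97 and 7.46 by day 38, and 5.52 and 8.03 in the day 45 libraries. *GREM1* (chr15:32718004-32745106), a secreted antagonist of BMPs, was at 53.2 and 42.6 CPM at day 16, 110 and 97.7 by day 23, 122 and 124 by day 31, 9.97 and 12.2 by day 38, and 9.52 and 17.0 in the day 45 libraries. Ligand and antagonist were both low at day 16, higher at days 23 and 31 and lowest in the late libraries. *SMOC1* (chr14:69854131-70032366), a secreted protein that can antagonise BMPs, was at 5.83 and 15.8 CPM at day 16, 16.6 and 11.3 by day 23, 5.26 and 6.45 by day 31, 0.774 and 0.767 by day 38, and 1.1 and 0 in the day 45 libraries. Its day 16 libraries overlapped with those of the other early days, and both day 31 libraries were below those of day 23.

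A list of 32 BMP pathway genes was written after the 47 genes were known. In 15 of the 32 all 6 early libraries were above all 4 late ones, where 8.9% of all genes tested had this order, and in 1, *BMP7*, all were below, where 5.79% had this order. Of the 27 genes of the list outside the 47, 10 had the first order, 1 the second and 16 overlapped. The HLH inhibitors were not alike. *ID2* averaged 781, 874 and 671 CPM at days 16, 23 and 31 and 261 and 206 at days 38 and 45, and *ID3* averaged 265, 319 and 216 and then 94.8 and 99.6. *ID4* averaged 887, 824 and 807 and then 850 and 699, and its early and late libraries overlapped. The intracellular inhibitor *SMAD6* averaged 137, 126 and 120 and then 50.5 and 31.8, and the pseudoreceptor *BAMBI* averaged 175, 193 and 106 and then 55.1 and 28.9. The ligand *BMP4* averaged 55.7, 159 and 271 and then 38.1 and 13.7. *BMPR1A*, a receptor for these ligands, averaged 301, 201 and 203 and then 208 and 199, with overlapping libraries. Within the phases, the list had 4 genes called higher and 4 lower at day 23 against 16, 1 and 4 at day 31 against 23, 4 and 9 at day 31 against 16, and 1 and 8 at day 45 against 38. Of all genes tested, 5.6 and 5.33%, 1.58 and 0.666%, 7 and 5.87%, and 4.85 and 6.35% were called higher and lower in these comparisons. The median log2 fold changes of its genes in these comparisons were 0.08, −0.19, −0.28 and −0.36.

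**Figure D2:**
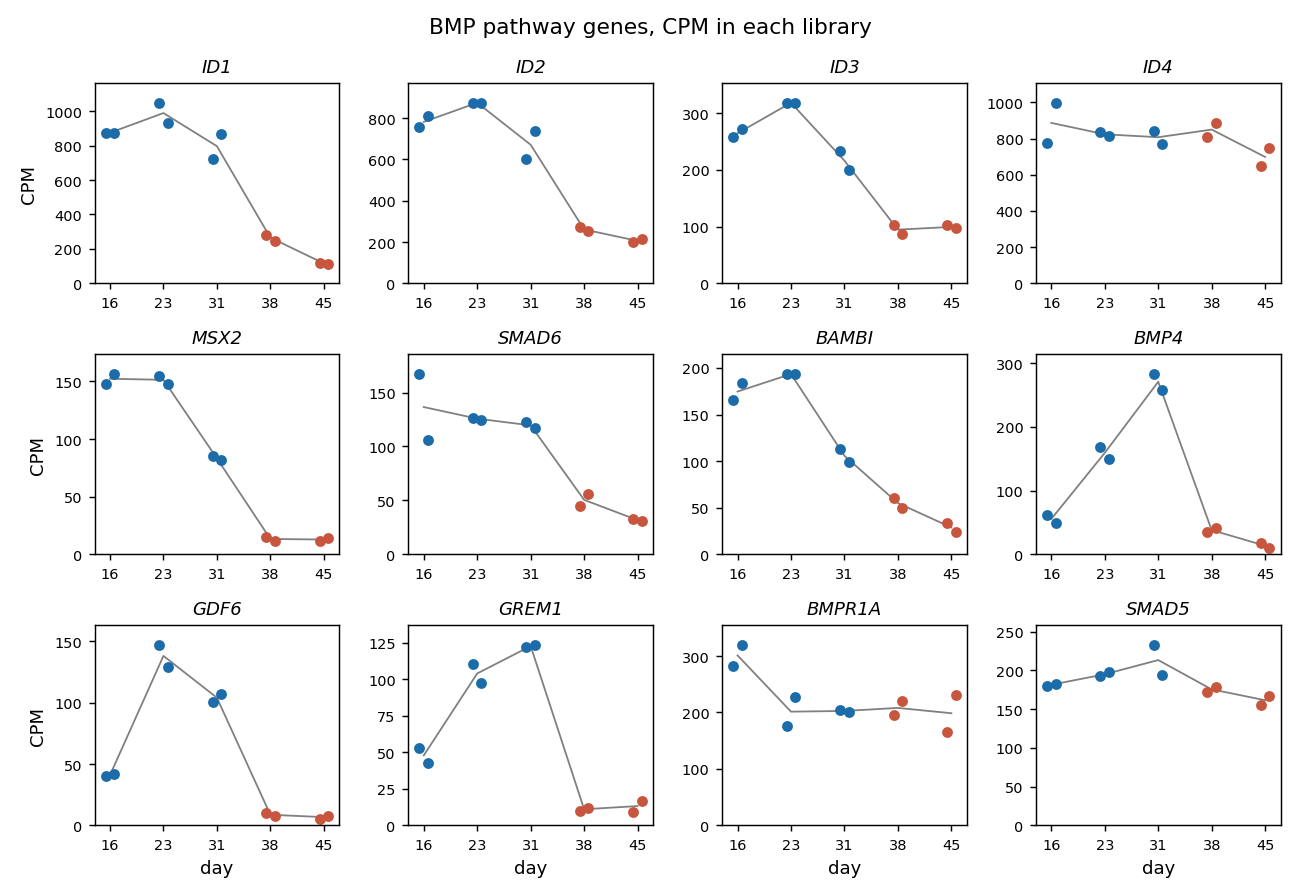
CPM of 12 BMP pathway genes in each library (points, blue for days 16 to 31 and orange for days 38 and 45) with the mean of the 2 libraries of a day (line), each panel from 0. ID1, ID2, ID3, MSX2, SMAD6, BAMBI, BMP4, GDF6 and GREM1 are lower in all late libraries, SMAD5 is lower by a small margin, and ID4 and BMPR1A overlap.

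*SST* (chr3:187668912-187670394), which encodes somatostatin, changed most from day 31 to day 38. It was at 126 and 152 CPM at day 16, 1069 and 957 by day 23, 1054 and 1197 by day 31, 18.5 and 13.6 by day 38, and 45.4 and 22.8 in the day 45 libraries. It was already lower at day 16 than at days 23 and 31, and the first day 45 library was the highest of the late ones. Genes for its receptors *SSTR1*, *SSTR2*, *SSTR3*, *SSTR4* and *SSTR5* and for the related peptide *CORT* had at most 8.96 CPM in any library and overlapped between the phases. These 6 genes and *SST* were also grouped after the 47 genes were known.

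Other receptors and signalling proteins had early means from 80.9 CPM (*GRB14*) to 535 CPM (*RANBP10*). *CYSLTR2* (chr13:48653711-48711226), a receptor for cysteinyl leukotrienes, was at 112 and 123 CPM at day 16, 358 and 311 by day 23, 260 and 250 by day 31, 20.3 and 23.4 by day 38, and 18.2 and 23 in the day 45 libraries. It was highest at day 23. *ADCY2* (chr5:7396138-7830081), an adenylyl cyclase that makes cAMP, was at 187 and 145 CPM at day 16, 148 and 147 by day 23, 72.7 and 85.6 by day 31, 16.4 and 17.4 by day 38, and 6.21 and 3.13 in the day 45 libraries. It was lower at day 31 than at days 16 and 23, and lower at day 45 than at day 38. *DACT1* (chr14:58633967-58648321), a Dishevelled-binding modulator of Wnt signalling, was at 298 and 253 CPM at day 16, 536 and 541 by day 23, 497 and 513 by day 31, 53.7 and 51.3 by day 38, and 25.0 and 23.1 in the day 45 libraries. *RANBP10* (chr16:67723070-67806560), which encodes a Ran-binding protein, was at 258 and 142 CPM at day 16, 739 and 711 by day 23, 692 and 670 by day 31, 45.4 and 54.9 by day 38, and 49.4 and 44.7 in the day 45 libraries. Its day 16 libraries differed from each other, and the lower one set its place near the threshold. *GRB14* (chr2:164492417-164621482), an adaptor that inhibits the insulin receptor, was at 126 and 137 CPM at day 16, 56.7 and 65.2 by day 23, 46.8 and 53.4 by day 31, 17.1 and 14.8 by day 38, and 7.59 and 4.38 in the day 45 libraries. It was highest at day 16.

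Regulators of transcription and chromatin followed. *ETV1* (chr7:13891229-13991425), an ETS transcription factor, was at 161 and 165 CPM at day 16, 377 and 389 by day 23, 337 and 338 by day 31, 37.4 and 41.4 by day 38, and 24.6 and 32.7 in the day 45 libraries. *DPPA4* (chr3:109326144-109337546), a nuclear protein known from pluripotent cells, was at 147 and 139 CPM at day 16, 143 and 134 by day 23, 114 and 99.4 by day 31, 17.9 and 17.9 by day 38, and 5.93 and 8.34 in the day 45 libraries. It was the member of the pluripotent marker list. *POU5F1* had at most 3 counts in any library, *UTF1* had 0 in all, and *NANOG* had at most 1.43 CPM. In 4 genes of that list, *DPPA4*, *LIN28A*, *TDGF1* and *ZFP42*, the early libraries were above the late ones. *DPPA4* has this order by the rule, and without it 3 of 7 had it, where 8.9% of all genes tested did. *LIN28A* was at 41.6 and 26.4 CPM at day 16, but at 0.767 to 1.98 CPM at days 23 and 31 and at 0 to 0.625 CPM in the late libraries. Its order thus rests, after day 16, on values near the floor. *SOX2* overlapped, at 1.59 to 16.2 CPM in the early libraries, 21.5 and 20.1 CPM at day 38, above every early library, and 5.11 and 5.63 CPM at day 45. The summed level of the 8 markers was 144 to 223 CPM in the early and 15.3 to 47.1 CPM in the late libraries. *DPPA4* had the highest CPM of the 8 as a mean of the 10 libraries, and *SOX2* was above it in both day 38 libraries. *BNC1* (chr15:83255884-83284664), a zinc finger protein of keratinocytes and germ cells, was at 15.9 and 22.6 CPM at day 16, 33.8 and 36.8 by day 23, 28.1 and 49.7 by day 31, 0.968 and 0.767 by day 38, and 2.21 and 4.80 in the day 45 libraries. It was lowest at day 38 and higher at day 45, at values far below those of the early phase.

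The next 5 genes, *SLC6A2*, *DPP6*, *RAB3B*, *NTM* and *MPPED2*, are known from nerve cells, among other tissues. They were put side by side after their values were seen, with no test of the grouping. *SLC6A2* (chr16:55655988-55707645), the noradrenaline transporter, was at 9.40 and 7.70 CPM at day 16, 13.1 and 18.3 by day 23, 11.0 and 10.5 by day 31, 0.387 and 0.110 by day 38, and 0 and 0 in the day 45 libraries. Its late counts were 4 and 1 at day 38 and 0 and 0 at day 45, so no fold is given between these days. *DPP6* (chr7:153748133-154894285), an accessory subunit of voltage-gated potassium channels, had the largest ratio of lowest early to highest late level among the 46 genes other than *SLC6A2*, 10.6, and was at 155 and 127 CPM at day 16, 67.0 and 64.7 by day 23, 50.1 and 58.2 by day 31, 4.74 and 3.84 by day 38, and 0.966 and 2.5 in the day 45 libraries. It was highest at day 16. *RAB3B* (chr1:51907956-51990700), a small GTPase of regulated secretion, was at 309 and 296 CPM at day 16, 166 and 161 by day 23, 171 and 150 by day 31, 53.0 and 53.8 by day 38, and 47.3 and 54.8 in the day 45 libraries. *NTM* (chr11:131370478-132336822), a cell adhesion protein of neurons, was at 150 and 133 CPM at day 16, 84.0 and 98.6 by day 23, 82.4 and 78.1 by day 31, 15.5 and 26.5 by day 38, and 8.28 and 5.52 in the day 45 libraries. *MPPED2* (chr11:30384493-30586872), a metallophosphoesterase of developing brain, was at 182 and 212 CPM at day 16, 476 and 475 by day 23, 536 and 529 by day 31, 56.4 and 58.3 by day 38, and 31.9 and 29.7 in the day 45 libraries.

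Of 8 genes known from noradrenergic cells, a group put together after the 47 genes were known, *SLC6A2* and *GATA3* are among the 47, and in the remaining 6 the phases overlapped. Of these, *TH* and *DBH*, which make noradrenaline, had at most 3.86 CPM in any library, and the transcription factor gene *PHOX2A* at most 2.41. *GATA3* (chr10:8045378-8075198), a transcription factor of several tissues, was at 137 and 104 CPM at day 16, 115 and 92.8 by day 23, 69.0 and 73.2 by day 31, 17.5 and 21.7 by day 38, and 15 and 22.2 in the day 45 libraries. Among 15 forebrain and neuron markers the summed level was 18.4 to 53.4 CPM in every library, with *DLX1* at 0 in all and the highest CPM, as a mean of the 10 libraries, in *TUBB3*. None of the 15 is among the 47, and in 1 of them the early libraries were above the late ones and in 2 below, where 8.9 and 5.79% of all genes tested had these orders.

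Among genes of cell shape and adhesion, *UACA* (chr15:70654554-70763558), which encodes an ankyrin repeat and coiled-coil protein, was at 823 and 867 CPM at day 16, 608 and 583 by day 23, 550 and 510 by day 31, 157 and 183 by day 38, and 105 and 107 in the day 45 libraries. Its 2 libraries were lower at each later day. *PODXL* (chr7:131500262-131558217), the apical sialomucin podocalyxin, was at 347 and 310 CPM at day 16, 481 and 460 by day 23, 353 and 443 by day 31, 43.9 and 51.7 by day 38, and 67.5 and 39.6 in the day 45 libraries. *LCP1* (chr13:46125920-46211871), an actin-bundling protein known from leukocytes, was at 249 and 257 CPM at day 16, 243 and 224 by day 23, 154 and 121 by day 31, 18.0 and 16.2 by day 38, and 27.9 and 21.2 in the day 45 libraries. The first day 45 library of *PODXL* and both day 45 libraries of *LCP1* were above their day 38 libraries.

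**Figure D3:**
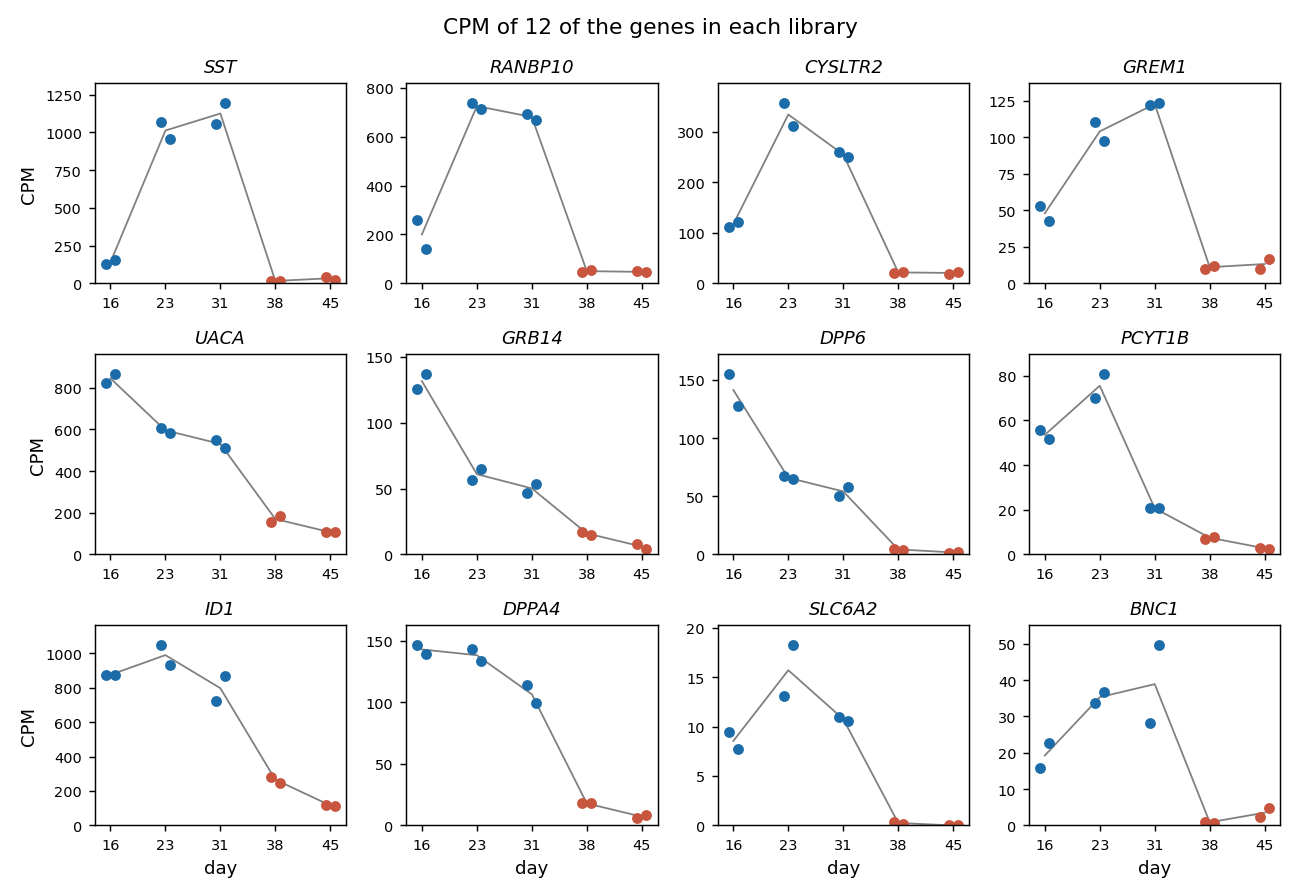
CPM of 12 of the 47 genes in each library (points, blue for days 16 to 31 and orange for days 38 and 45) with the mean of the 2 libraries of a day (line), each panel from 0. The top row holds genes lowest at day 16 among the early days, the middle row holds genes that fell within the early phase, and the bottom row holds ID1, DPPA4, SLC6A2 and BNC1.

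*MCM2* (chr3:127598410-127622436), a subunit of the MCM helicase that unwinds DNA at replication forks, was at 52.6 and 50.4 CPM at day 16, 56.8 and 42.4 by day 23, 55.8 and 56.7 by day 31, 16.2 and 12.6 by day 38, and 12.3 and 8.03 in the day 45 libraries. All other subunits, from *MCM3* to *MCM7*, had every early library above every late one but missed the ratio of 2.5, and their list was written after the 47 genes were known. The summed level of the 6 subunits was 328 to 368 CPM in the early and 99.2 to 139 CPM in the late libraries. Within the phases the median log2 fold changes of the 6 were −0.07 at day 23 against 16, 0.13 at day 31 against 23, 0.08 at day 31 against 16 and −0.55 at day 45 against 38, where *MCM2* had −0.57 (standard error 0.27, edgeR adjusted p = 0.21). By edgeR 0 of the 6 were called in any of these comparisons, and by DESeq2 also 0. At an unadjusted p under 0.05, 4 were lower at day 45 against 38 by edgeR and 2 by DESeq2, and 0 in either direction within the early phase by either tool. Of the 15 genes of the proliferation list, *MCM2* had this order of phases by the rule. Without it 1 of 14, *MCM5*, had the order, which 8.9% of all genes tested had, and the other 13 overlapped. *MKI67*, a marker of cycling cells, averaged 221, 151 and 211 CPM at days 16, 23 and 31 and 154 and 97.3 at days 38 and 45. *TOP2A*, the mitotic topoisomerase, averaged 185, 118 and 157 and then 208 and 136.

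**Figure D4:**
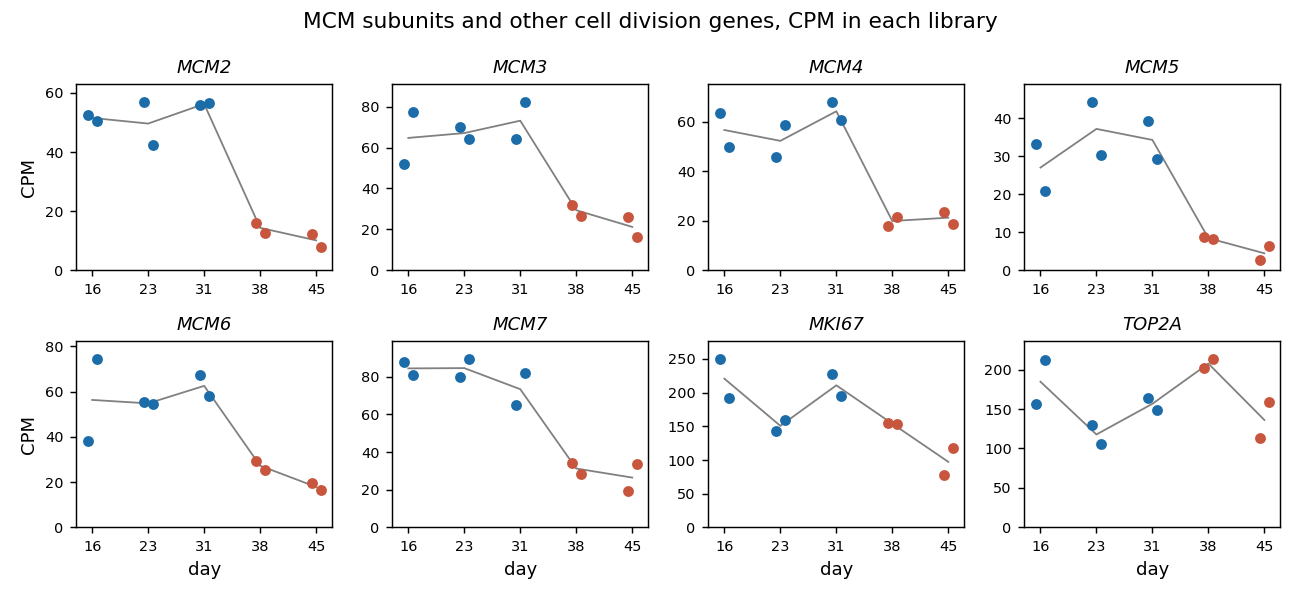
CPM of the 6 MCM subunits and of MKI67 and TOP2A in each library (points, blue for days 16 to 31 and orange for days 38 and 45) with the mean of the 2 libraries of a day (line), each panel from 0. The late libraries lie below the early ones for all 6 subunits and overlap with them for MKI67 and TOP2A.

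*PCYT1B* (chrX:24558087-24672677), an enzyme of phosphatidylcholine synthesis, was at 55.5 and 51.5 CPM at day 16, 70.1 and 80.9 by day 23, 20.7 and 20.6 by day 31, 7.06 and 7.89 by day 38, and 2.90 and 2.61 in the day 45 libraries. It was lower at day 31 than at day 23. *ADAMTSL2* (chr9:133532164-133575519), a secreted glycoprotein of the extracellular matrix, was at 67.9 and 41.3 CPM at day 16, 58.1 and 54.2 by day 23, 21.3 and 19.1 by day 31, 5.61 and 5.04 by day 38, and 3.17 and 3.65 in the day 45 libraries, with the same step. *CDH7* (chr18:65750252-65890337), a cadherin, was at 91.4 and 115 CPM at day 16, 101 and 92.9 by day 23, 59.4 and 40.0 by day 31, 10.5 and 12.7 by day 38, and 9.24 and 6.36 in the day 45 libraries. *EPDR1* (chr7:37920640-37951936), which encodes an ependymin-related protein, was at 63.0 and 56.8 CPM at day 16, 27.9 and 30.4 by day 23, 22.8 and 21.2 by day 31, 7.06 and 7.35 by day 38, and 8.14 and 8.24 in the day 45 libraries. It was highest at day 16. *LOC644634* (chr1:149702209-149705716), annotated as a long non-coding RNA, was at 53.1 and 40.7 CPM at day 16, 30.3 and 32.3 by day 23, 24.1 and 24.7 by day 31, 6.68 and 4.49 by day 38, and 0.828 and 2.08 in the day 45 libraries. A second long non-coding RNA, *LOC101929563* (chr9:23500691-23672399), was at 8.74 and 8.55 CPM at day 16, 13.9 and 13.8 by day 23, 15 and 7.81 by day 31, 1.74 and 1.32 by day 38, and 1.66 and 0.834 in the day 45 libraries. *TMPO-AS1* (chr12:98512973-98516422), an antisense RNA of *TMPO*, had the smallest ratio of early to late means, 3.87, and was at 8.08 and 8.55 CPM at day 16, 9.41 and 6.85 by day 23, 9.87 and 10.0 by day 31, 2.71 and 2.41 by day 38, and 2.62 and 1.36 in the day 45 libraries. The remaining 16 genes were *DAB2*, *RUNX1T1*, *DEPDC1B*, *PLPPR1*, *PASK*, *TRIM45*, *TPPP3*, *ENPP1*, *PAQR8*, *CFAP47*, *B3GAT1*, *NEUROG2*, *SERTM2*, *VWA5B2*, *LOC646588* and *KCNJ10*. Their early libraries lay between 5.13 CPM (*LOC646588*) and 139 CPM (*DAB2*) and their late libraries between 0 (*NEUROG2*) and 27.4 CPM (*RUNX1T1*). They include an endocytic adaptor (*DAB2*), a transcriptional corepressor (*RUNX1T1*), a proneural factor (*NEUROG2*) and an inwardly rectifying potassium channel (*KCNJ10*).

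The threshold separated neighbours with like values. Just inside it were *GREM1*, with a lowest early level 2.51 times its highest late level, *TMPO-AS1* (2.53), *ID1* (2.56), *EPDR1* (2.57) and *RANBP10* (2.59). Just outside it, *TENM4* (ratio 2.499) was at 209 and 156 CPM at day 16, 280 and 291 by day 23, 165 and 199 by day 31, 55.4 and 62.3 by day 38, and 37.3 and 30.5 in the day 45 libraries. *METAP1D* (2.49) was at 8.74 and 12.6 CPM at day 16, 9.52 and 8.29 by day 23, 11.6 and 8.56 by day 31, 1.84 and 3.18 by day 38, and 2.48 and 3.34 in the day 45 libraries. *SV2A* (2.48) was at 37.5 and 34.3 CPM at day 16, 34.7 and 30.9 by day 23, 35.4 and 28.3 by day 31, 9.97 and 11.4 by day 38, and 7.87 and 8.86 in the day 45 libraries. The early libraries of these genes were still apart from their late ones. *HELLS* (2.46) was at 101 and 148 CPM at day 16, 93.3 and 90.4 by day 23, 99.4 and 105 by day 31, 21.5 and 29.3 by day 38, and 19.7 and 36.7 in the day 45 libraries. *RGMB-AS1* (2.42) was at 5.30 and 9.77 CPM at day 16, 21.1 and 12.4 by day 23, 9.54 and 10.5 by day 31, 2.03 and 2.19 by day 38, and 0 and 1.15 in the day 45 libraries.

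Changes within a phase were tested by quasi-likelihood in edgeR. P-values were adjusted over 21014 genes by the Benjamini-Hochberg method, with a threshold of 0.05. All 47 genes passed the low-count filter, by their early level. The rule bounds these changes but sets no direction for them. The 3 comparisons among days 16, 23 and 31 share libraries and are not independent of each other. The study names 2 biological replicates per day from pooled wells, and the p-values measure the spread between these libraries.

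From day 16 to day 23, *SST*, *RANBP10* and *GDF6* rose most and *GRB14*, *DPP6* and *EPDR1* fell most among the 47. Of the 47, 10 were called higher (21.3%), against 5.6% of all genes tested and 8.42% of the genes at 5 CPM or more in all early libraries, and 8 were called lower (17%), against 5.33 and 7.48%. *SST* rose by a log2 fold change of 2.82 (standard error 0.18, adjusted p = 1.6e-13), *RANBP10* by 1.82 (0.16, adjusted p = 1.6e-10) and *GDF6* by 1.71 (0.21, adjusted p = 1.9e-07). *CYSLTR2*, *MPPED2*, *CFAP47*, *ETV1*, *GREM1*, *DACT1* and *PODXL* were also called higher. *GRB14* fell by 1.16 on the log2 scale (standard error 0.21, adjusted p = 0.00022), *DPP6* fell by 1.14 (0.22, adjusted p = 0.0003) and *EPDR1* fell by 1.08 (0.27, adjusted p = 0.0057). *PASK*, *TPPP3*, *RAB3B*, *NTM* and *UACA* were also called lower. Without the first day 23 library the call of *EPDR1* was lost (adjusted p = 0.068). The median log2 fold change of the 47 was −0.08, against −0.02 over all genes tested.

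From day 23 to day 31, *PCYT1B*, *ADAMTSL2* and *CDH7* had the largest falls among the genes called lower, and none of the 47 was called higher. *SMOC1* (−1.28, standard error 0.66, adjusted p = 0.47) and *CFAP47* (−1.17, 0.39, adjusted p = 0.14) had lower log2 fold changes than *CDH7* and were not called. Of the 47, 7 were called lower (14.9%), against 0.666% of all genes tested and 1.08% of the genes at 5 CPM or more in all early libraries. With edgeR 0 were called higher, against 1.58 and 1.62%, with 2 at an unadjusted p below 0.05 and 0 by DESeq2. *PCYT1B* fell by 1.90 on the log2 scale (standard error 0.25, adjusted p = 6.5e-06), *ADAMTSL2* fell by 1.5 (0.28, adjusted p = 0.00094) and *CDH7* fell by 0.99 (0.22, adjusted p = 0.0075). *ADCY2*, *MSX2*, *DAB2* and *LCP1* made up the rest. The call of *CDH7* was lost without either day 23 library (adjusted p = 0.11 and 0.051) and without the second day 31 library (adjusted p = 0.20). Without the first day 23 library or the second day 31 library 4 genes were called lower. The median of the 47 was −0.31, against 0.00 over all genes tested.

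Over the whole early phase, from day 16 to day 31, 18 of the 47 were called lower (38.3%), against 5.87% of all genes tested and 8.8% of the genes at 5 CPM or more in all early libraries. Another 8 were called higher (17%), against 7 and 9.33%. The genes called higher were *SST* (log2 fold change 2.94, standard error 0.18, adjusted p = 3.8e-14), *RANBP10* (1.71, 0.16, adjusted p = 4.3e-10), *MPPED2* (1.36, 0.13, adjusted p = 1.0e-09), *GREM1*, *GDF6*, *CYSLTR2*, *ETV1* and *DACT1*. *EPDR1* (−1.51, 0.27, adjusted p = 0.0001), *ADAMTSL2* (−1.5, 0.28, adjusted p = 0.00016) and *GRB14* (−1.46, 0.22, adjusted p = 4.7e-06) fell most. They were followed by *DPP6*, *PCYT1B*, *ADCY2*, *CDH7*, *TPPP3*, *DAB2*, *LOC644634*, *RAB3B*, *LCP1*, *MSX2*, *NTM*, *GATA3*, *DEPDC1B*, *UACA* and *DPPA4*. Of the 5 BMP pathway genes, the ligand *GDF6* and the antagonist *GREM1* rose and the target *MSX2* fell, at different steps. From day 16 to day 23 *MSX2* had a log2 fold change of −0.06 and was not called. From day 23 to day 31 *MSX2* had −0.89 and was called lower, and *GDF6* (−0.43) and *GREM1* (0.21) were not called. *ID1* had a log2 fold change of −0.20 (standard error 0.12) from day 16 to day 31 and was not called. The median of the 47 was −0.27, against −0.01 over all genes tested.

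By the labels, SB431542 entered the medium between days 38 and 45. At this step 15 of the 47 were called lower (31.9%), against 6.35% of all genes tested and 10.9% of the genes at 5 CPM or more in all early libraries. A fit of only the 4 libraries compared called 9 lower, against 7.85 and 11.6% in that fit, and 1 higher, against 8.63 and 9.04%. With all 10 libraries in the fit only *BNC1* and *SST* were called higher (4.26%), against 4.85 and 6.65%. *ADCY2* fell by 1.95 on the log2 scale (standard error 0.25, adjusted p = 5.1e-07), *LOC644634* fell by 1.94 (0.41, adjusted p = 0.0012) and *NTM* fell by 1.66 (0.24, adjusted p = 5.9e-06). The call of *LOC644634* was lost in the fit of only the 4 libraries compared. *ID1* fell by 1.25 (0.13, adjusted p = 5.0e-09) and *DPPA4* fell by 1.36 (0.21, adjusted p = 1.4e-05). *GRB14*, *PCYT1B*, *DPP6*, *DACT1*, *PLPPR1*, *RUNX1T1*, *TRIM45*, *MPPED2*, *UACA* and *ETV1* were also called lower. The median of the 47 was −0.50, against −0.02 over all genes tested and −0.09 over the genes at 5 CPM or more in all early libraries.

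Both upward calls of this step were lost when single libraries were left out. *BNC1* rose by a log2 fold change of 1.96 (standard error 0.50, adjusted p = 0.0068), and the call was lost without the second day 38 library (adjusted p = 0.095) and without the second day 45 library (log2 fold change 1.28, adjusted p = 0.25). *SST* rose by 1.01 (0.21, adjusted p = 0.00064), and without the first day 45 library the value was 0.44 (adjusted p = 0.21).

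**Figure D5:**
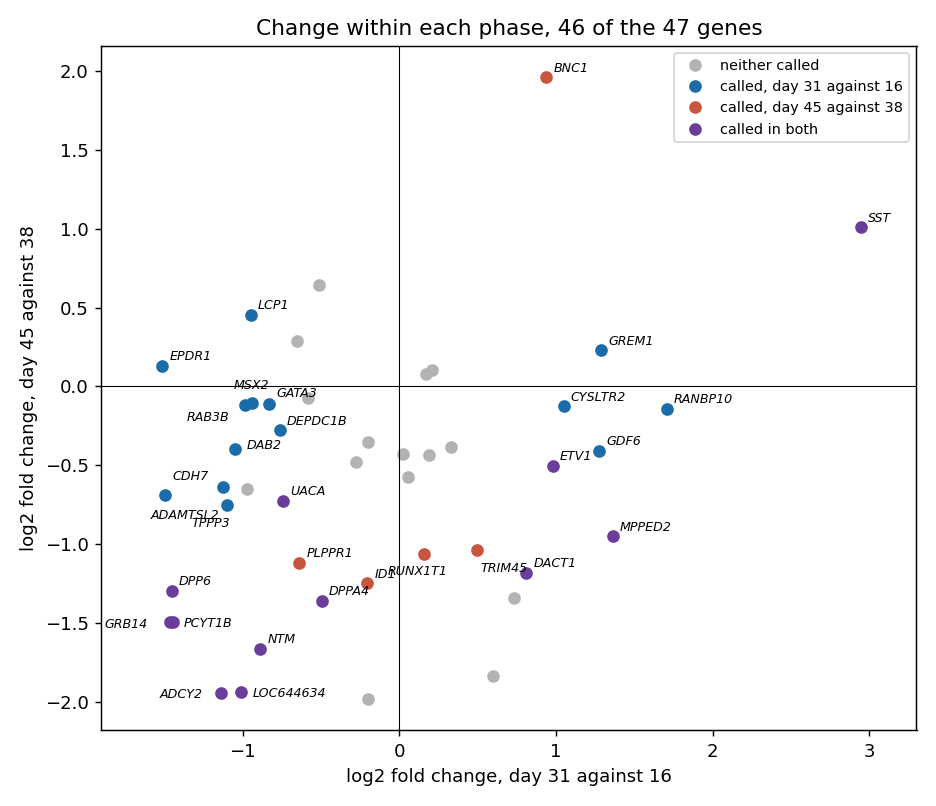
Log2 fold changes of 46 of the 47 genes from day 16 to day 31 (horizontal axis) and from day 38 to day 45 (vertical axis), coloured by the comparisons in which they were called and named where called. SLC6A2 is left out because both day 45 libraries had 0 counts. SST is the gene called higher in both, and ADCY2, LOC644634, NTM, GRB14, PCYT1B, DPP6, DPPA4 and UACA were called lower in both. Calls are those of the fit of all 10 libraries. A fit of only the 4 libraries compared lost some of them, among them LOC644634 from day 38 to day 45.

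Markers of other cell types moved between the phases too, and their part in the levels of the 47 genes was not tested. The label of the cells was checked on 12 thyroid markers, whose sum was 1580 to 2199 CPM in the early and 7217 to 9671 CPM in the late libraries. Without *TG* the sum of the remaining 11 was 1568 to 2101 CPM in the early and 2102 to 2628 CPM in the late libraries. *TG*, the precursor of thyroid hormone and the highest of them in CPM in the late libraries, averaged 11.4, 202 and 220 CPM and then 4780 and 7376. In 6 of the 12 all late libraries were above all early ones, where 5.79% of all genes tested had this order, which is the share to set beside the like counts of the other marker lists. The markers *NKX2-1* and *PAX8* overlapped. Their reads may also come from the transgenes, whose expression, by the study's qRT-PCR, had fallen to that of the control without doxycycline before day 16. At day 45 *NKX2-1* (55.2 and 63.7 CPM), the forkhead factor gene *FOXE1* (194 and 208 CPM) and the iodotyrosine deiodinase gene *IYD* (65.7 and 76.8 CPM) were below every early library. Of the 12, 4 were called lower at day 45 against 38 by edgeR and 2 higher, where 6.35 and 4.85% of all genes tested were called. The marker named for each of the next lists is the one with the highest CPM as a mean of the 10 libraries, and others were above it in some libraries. The summed level of 13 mesenchyme markers was 2290 to 3020 CPM in the early and 5459 to 6176 in the late libraries, with *VIM* the highest, and 3 of the 13 were higher in all late libraries. Muscle markers summed to 41.4 to 95.6 CPM and then 168 to 196, with *MYL4* the highest, *MYOD1* at 0 in all and 4 of 10 higher in all late libraries. Lung markers summed to 37.9 to 691 CPM and then 126 to 164, with *SFTPB* the highest (*ABCA3* was above it at days 16, 38 and 45), *SFTPC* at no more than 3 counts and 0 of 10 ordered between the phases. Gut and liver markers summed to 25.7 to 241 CPM and then 104 to 332, with *AFP* the highest and 1 of 8 higher in all late libraries. Endothelial markers summed to 82.2 to 98.5 CPM and then 31.9 to 73.7, with *EMCN* the highest and 1 of 8 higher in all late libraries.

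The 47 genes were spread over the genome, with 5 on chromosome 7 (0.962%) and 4 each on chromosomes 1 (0.371%), 3 (0.623%) and 5 (0.753%). These percentages are relative to the GENCODE-matched genes of the chromosome at 5 CPM or more in all early libraries. None lay on chromosomes 17, 19, 21 and 22, which had 610, 724, 102 and 238 such genes. *LOC646588* on chromosome 7 and *LOC644634* on chromosome 1 are not GENCODE-matched, so the percentages of these chromosomes are not exact shares. No member lay within 200 kb of another, and the closest pair, *TPPP3* and *RANBP10* on chromosome 16, was 329552 bp apart. The median gene length was 54587 bp over the 44 of the 47 matched in GENCODE, against 39184 bp for 10739 matched genes at 5 CPM or more in all early libraries. Positions are those of GENCODE on GRCh38, and of RefSeq for the 3 LOC symbols. The strand setting of the counting is not given in the sources used here, so levels are uncertain for genes that overlap a measured gene on the opposite strand. These are *LCP1*, *NTM*, *GATA3*, *PASK*, *PCYT1B*, *EPDR1*, *NEUROG2*, *VWA5B2* and *TMPO-AS1*, and *LOC644634* overlaps *LINC00869*.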

How the data were processed

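NKX2-1GFP+ cells were sorted into RNA lysis reagent and sequenced as paired-end libraries. The authors used Trimmomatic for trimming, HISAT2 for alignment to GRCh38 and HTSeq with the GRCh38.p13 annotation for counting, and deposited the raw counts. Samples were grouped by day and replicate from their labels. CPM were computed from the deposited counts. The 47 genes, the gene lists and the tests were chosen with earlier results of these data known, and the BMP, MCM, noradrenergic and somatostatin lists after the 47 genes were known.

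The 21014 genes that reached 5 counts in 2 or more libraries were fitted with 1 mean per day over all 10 libraries (R 4.3.3, edgeR 4.0.16, limma 3.58.1, glmQLFit and glmQLFTest with TMM factors of 0.896 to 1.07, 5 residual degrees of freedom). P-values were adjusted by Benjamini-Hochberg. Standard errors are the log2 fold change over the square root of F. The procedure was tested on simulated data. Replicates of a day differed by more than sampling noise (chi-square per degree of freedom 8.84 to 14.5), and PCR copies were not separated, so 3 counts as a floor covers counting error only. Genes were named by a fixed rule: the 15 with the highest early mean, the 10 with the largest ratio, the 5 nearest the threshold on either side, list members, and the 3 called with the largest change in each direction of each comparison. Promoters came from RefSeq (GRCh38.p14). The alternatives were DESeq2 1.42.0, other scalings, filters, thresholds and floors, a replicate block, a fit of the 4 libraries compared, and leaving out each library. The results of some list genes are not reported here.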

Additional observations from a re-analysis of the deposited data

How the results depend on the processing

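The rule kept 101 genes with a ratio of 2, 29 with a ratio of 3 and 31 with TMM effective library sizes. Leaving out each library in turn gave 49 to 72 genes, the highest without the second day 38 library. With an absolute log2 fold change of at least 1, 5 genes were lower at day 23 against 16, 2 at day 31 against 23 and 10 at day 31 against 16. A fit of only the 4 libraries compared called 1 gene higher and 9 lower at day 45 against 38. Leaving out each library gave 4 to 7 genes lower at day 31 against 23, and 1 to 2 higher at day 45 against 38, with 1 without the second day 38 library or the first day 45 library. Fewer libraries or a stricter threshold enter these alternatives by construction, and no other cause was tested. The replicate numbers did not pair the libraries (correlations of deviations from −0.041 to 0.041), and with the replicate block 11 genes were higher and 8 lower at day 23 against 16, 0 and 7 at day 31 against 23, 9 and 19 at day 31 against 16, and 2 and 16 at day 45 against 38. Of 300 alternatives for 20 results on single genes, 291 kept the direction and the call, 9 lost the call and 0 reversed. Many of these alternatives left out a library of a day that was not compared, which bears little on the fold change. The genes were also picked as those called with the largest changes, so this count is not a measure of robustness. The lost calls were those of *EPDR1*, *CDH7*, *BNC1* and *SST* given above, and of *BNC1* (adjusted p = 0.16) and *LOC644634* (adjusted p = 0.066) at day 45 against 38 in the fit of only the 4 libraries compared. Depth limits the late values of the 5 genes with at least 1 late library at or under 3 counts.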

Other observations

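Genes of other developmental lists had the same order of phases without reaching the ratio of 2.5. Among 14 genes of the LIN28 and let-7 target list, none of which is among the 47, all early libraries were above all late ones in 9, where 8.9% of all genes tested had this order. For *LIN28A*, 1 of the 9, the order rests on values near the floor, with a lowest early level of 0.767 CPM and a highest late level of 0.625 CPM. The RNA-binding protein gene *LIN28B* averaged 123, 84.2 and 76.3 CPM at days 16, 23 and 31 and 32.8 and 9.37 at days 38 and 45, and *PRTG*, which encodes protogenin, averaged 1939, 808 and 546 and then 279 and 108. *HMGA2*, the highest of the list in CPM as a mean of the 10 libraries, averaged 930, 980 and 966 and then 1168 and 673, and overlapped. Of 24 pharyngeal and foregut mesoderm factors, 5 had this order (*TBX3*, *EYA1*, *HAND1*, *ISL1* and *GATA6*) and 1, *GATA4*, the opposite one. *ISL1* averaged 95.3, 171 and 110 CPM and then 38.8 and 8.78.

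Of all genes tested, 8.9% were lower and 5.79% higher in all late libraries, and the counts below stand beside these shares. Of 15 cAMP target genes 1 was lower and 4 were higher in all late libraries, and of 12 glucocorticoid target genes 2 were lower and 5 higher. Of 21 imprinted genes 1 was lower and 4 were higher. By gene family, 67 of 541 tested ZNF genes were lower and 5 higher, as were 6 and 0 of 57 clustered protocadherins, 33 and 11 of 693 LINC genes, 27 and 27 of 377 SLC genes and 3 and 13 of 51 COL genes. Of the clustered protocadherins 10 were called higher and 1 lower at day 23 against 16 by edgeR (median log2 fold change 0.62), where 5.6 and 5.33% of all genes tested were called, and 9 and 2 by DESeq2. At day 45 against 38, 17 were called lower and 0 higher by edgeR (median −1.04), and 16 and 0 by DESeq2, where edgeR called 6.35% of all genes tested lower and 4.85% higher. At an unadjusted p under 0.05 the counts of this step were 28 and 0 by edgeR and 27 and 0 by DESeq2.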
